A study of Mus musculus with 6 samples.

Results

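Chemokine ligands are small secreted proteins that draw leukocytes along a concentration gradient. The genes analysed here are all mouse genes of the deposited count tables whose symbol is that of a Ccl, Cxcl, Cx3cl1 or Xcl1 gene, which gave 32 of 25722 genes. Pf4, a platelet chemokine, was left out by this rule. The 6 RNA libraries are labelled as bone marrow mesenchymal stromal cells (BMSCs) of wild-type C57BL/6 mice, the adherent cells of tibia and femur marrow, grown at low oxygen with a ROCK inhibitor in the medium and used at early passage. All 6 shared strain, medium and inhibitor, and the labels name no added cytokine. There were 3 control libraries of cells given the solvent DMSO and 3 given all-trans retinoic acid (RA), the vitamin A metabolite that acts through nuclear receptors. The labels give 1 μM RA for 48 h, while the study's methods give a lower dose and a shorter time for the sequenced cells, so the exposure is uncertain. The labels also speak of 2 biological replicates, though 3 libraries stand in each group.

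Chemokine ligands are named for the spacing of their cysteines (CC, CXC, CX3C or C) and act on receptors of the same classes, which are G protein-coupled. Some are inducible and made at injury or infection, largely through NF-κB and interferon-activated factors. Others are homeostatic and made at rest. In marrow, stromal cells hold stem and progenitor cells in place with CXCL12, and CCL2 acts on the receptor CCR2 to let monocytes leave.

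The libraries held between 14737636 and 18511905 counts. The 3 libraries control 2, RA 1 and RA 2 (set 1 below) stood apart from control 1, control 3 and RA 3 (set 2) on the first principal component, which took 57.0% of the variance of the 1000 most variable genes when the chemokine ligand genes were left out. No label gives a batch or a date for these sets. They were seen in the expression values themselves, so differences between them are given as descriptions without a test. The label calls the cells BM-MSCs, and the markers go against that name as the sole content of the libraries, since the summed macrophage markers, carried by Lyz2 and Adgre1, stood above the summed mesenchymal markers in each. Single macrophage markers such as Cd163, at a mean of 2.01 CPM, and Mrc1, at 277 CPM, lay below Col1a1, at 878 CPM. Adgre1, which encodes the macrophage marker F4/80, stood between 4463 and 6379 CPM (counts scaled by TMM to 1000000 per library) in the 6 libraries, and Col1a1, a collagen gene of stromal cells, between 414 and 1648 CPM. The stromal markers Thy1 and Nt5e were too low to be tested, and Thy1 was at 0 in RA 3. Of the 14 macrophage markers 2 were higher and 9 lower in every set 1 library, and of 11 tested mesenchymal markers 5 were higher and 0 lower, where 23.4% of all genes were higher and 24.4% lower. The summed level of 14 macrophage markers lay between 18635 and 19869 CPM in set 1 and between 17472 and 19654 CPM in set 2, and that of 14 mesenchymal markers between 1718 and 3678 CPM in set 1 and between 1271 and 1990 CPM in set 2. Which cells made the chemokine RNA was not tested, and fewer cells of a type cannot be told apart from less RNA per cell in such bulk samples.

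The promoters of 3 genes of one cluster whose levels parted the library sets carried the same stretch of letters, and they are shown here for that shared stretch. No test set these letters against the levels, and genes without a promoter entry, such as Ccl2, Ccl7 and Cxcl5, differed between the sets as well. Cxcl1, Cxcl2 and Cxcl3 encode ligands of CXCR2, the receptor that draws neutrophils, and lie in one cluster on chromosome 5. Each line holds the 250 bases before the RefSeq transcription start (build GRCm38.p6), 5′ to 3′, with capitals on matches, on either strand, to a form of the NF-κB site (GGG, any 3 bases, then TTCC). All 3 genes lie on the plus strand, at chr5:90890995-90891244, chr5:90903649-90903898 and chr5:90785851-90786100.
Cxcl1: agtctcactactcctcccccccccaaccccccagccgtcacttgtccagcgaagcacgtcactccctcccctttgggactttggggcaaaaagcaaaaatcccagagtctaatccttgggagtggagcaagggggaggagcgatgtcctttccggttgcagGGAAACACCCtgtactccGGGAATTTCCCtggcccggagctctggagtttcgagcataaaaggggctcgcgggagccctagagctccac
Cxcl2: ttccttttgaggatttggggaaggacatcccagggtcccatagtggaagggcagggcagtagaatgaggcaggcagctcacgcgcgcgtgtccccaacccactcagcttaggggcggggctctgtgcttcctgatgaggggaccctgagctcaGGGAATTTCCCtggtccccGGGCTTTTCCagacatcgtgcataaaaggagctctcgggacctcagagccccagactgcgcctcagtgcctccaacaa
Cxcl3: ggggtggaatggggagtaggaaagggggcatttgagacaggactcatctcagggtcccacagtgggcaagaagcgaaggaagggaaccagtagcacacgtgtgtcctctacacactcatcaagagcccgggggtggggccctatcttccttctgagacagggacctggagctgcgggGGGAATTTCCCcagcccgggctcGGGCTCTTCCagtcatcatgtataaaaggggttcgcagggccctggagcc
The run GGGAATTTCCC, which reads as a match on both strands, stood in all 3 promoters, beginning 71 bases before the start in Cxcl1, 97 in Cxcl2 and 73 in Cxcl3. The fourth sequence, from Cxcl10 on the minus strand of chromosome 5 (chr5:92348890-92349139), is shown because this interferon-induced gene carried 2 such matches and also an interferon response type (GAAA, any 2 bases, then GAAA), which is left in lower case.
Cxcl10: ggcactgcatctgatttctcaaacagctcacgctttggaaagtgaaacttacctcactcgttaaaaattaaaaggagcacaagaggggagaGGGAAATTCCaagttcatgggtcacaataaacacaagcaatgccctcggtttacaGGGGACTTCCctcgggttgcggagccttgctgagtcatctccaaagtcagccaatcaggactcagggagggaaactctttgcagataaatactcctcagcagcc
The promoters of Ccl6 and Cxcl14 are shown because these genes had the highest edgeR log2 fold changes after RA. Capitals mark AGGTCA, a half-site bound by retinoic acid receptors and other nuclear receptors, on either strand. They lie on the minus strand, at chr11:83593088-83593337 and chr13:56296552-56296801.
Ccl6: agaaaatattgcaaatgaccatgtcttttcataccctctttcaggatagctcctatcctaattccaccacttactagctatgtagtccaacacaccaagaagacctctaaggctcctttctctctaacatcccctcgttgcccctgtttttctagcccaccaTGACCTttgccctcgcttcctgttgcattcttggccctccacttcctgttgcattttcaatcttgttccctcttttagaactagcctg
Cxcl14: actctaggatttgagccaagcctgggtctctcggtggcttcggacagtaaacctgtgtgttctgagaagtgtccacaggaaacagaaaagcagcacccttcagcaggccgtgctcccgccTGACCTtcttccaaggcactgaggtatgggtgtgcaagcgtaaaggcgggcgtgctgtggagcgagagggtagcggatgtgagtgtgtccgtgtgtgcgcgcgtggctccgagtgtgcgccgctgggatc
Among all 32851 promoter entries of the same length, 4.65% held the NF-κB type, 2.98% the interferon response type, 6.75% TGANTCA (an AP-1 type) and 14.02% AGGTCA. Promoters were found for 23 of the 32 genes and for 14 of the 20 that were tested for a change. Of these 14, 5 held the NF-κB type (Cxcl1, Cxcl2, Cxcl3, Cxcl10 and Ccl9), 2 the interferon response type (Cxcl10 and Cxcl14), 3 TGANTCA (Ccl9, Ccl27a and Cxcl10) and 6 AGGTCA (Ccl3, Ccl6, Ccl25, Ccl27a, Cxcl9 and Cxcl14). The shares are per entry, while a gene was counted with a match in any of its entries, and the 23 genes had 26 entries. The motifs were searched on both strands, and a match is a description of letters, not of binding. No entry was found for Ccl2, Ccl4, Ccl5, Ccl7, Ccl11, Ccl24, Cxcl5, Cxcl11 and Cxcl16.

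Of the 32 genes, 20 passed the expression filter and 12 did not. The 32 genes took between 0.0972% and 0.195% of a library's counts. Per kilobase of exon, the highest mean level over the 6 libraries was that of Ccl3, at 128.5 CPM per kilobase, followed by Ccl4 at 88.7, Ccl9 at 82.8, Cxcl16 at 68.6, Ccl7 at 61.1, Ccl6 at 60.1, Cxcl12 at 56.6 and Ccl2 at 48.8. This order holds for the means and not for each library. Per kilobase, Ccl9 stood above Ccl4 in all 3 RA libraries and below it in all 3 controls, and in control 2 Ccl7 and Ccl2 stood above Ccl3. The summed CPM of the 32 genes was 1754 in control 2, 1885 in RA 1 and 1695 in RA 2, against 1003 in control 1, 1031 in control 3 and 1310 in RA 3. In set 2 the RA library stood above both controls, while in set 1 the control lay between both RA libraries.

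**Figure D1:**
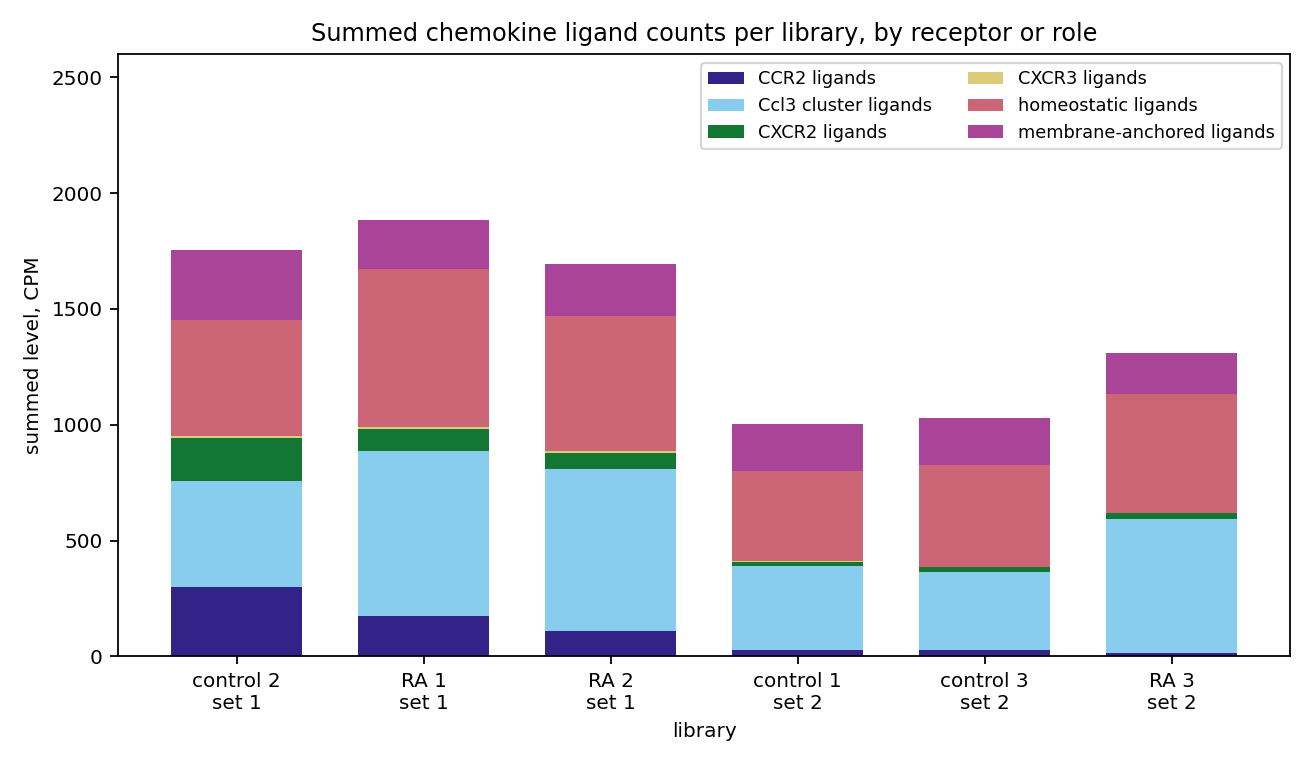
Summed level (CPM, y axis) of the chemokine ligand genes in each of the 6 libraries (x axis), stacked by receptor, gene cluster or role; the 3 remaining role groups (CCR3, CCR4 and other ligands), each under 2 CPM, are not drawn. The Ccl3 cluster ligands (Ccl3, Ccl4, Ccl5, Ccl6 and Ccl9) take between 581 and 713 CPM in the RA libraries and between 337 and 461 in the controls, most of it from Ccl9 and Ccl6. The CCR2 ligands take the most in control 2.

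RA against control was tested with edgeR over all 13842 genes that passed the filter, to ask which chemokine genes differ after RA without an inflammatory stimulus. Genes were called where the adjusted p was under 0.05 and the change 1.5-fold or more. By this rule 0 of the 20 chemokine genes were called, where 0.0433% of all genes were, 0.0361% higher and 0.00722% lower. At an unadjusted p under 0.05, 5 were higher after RA (Ccl3, Ccl6, Ccl9, Cxcl12 and Cxcl14) and 0 lower, where 5.25% of all genes passed, 2.89% higher and 2.36% lower. DESeq2 called 1, Ccl6, higher, where it called 0.983% of all genes, 0.708% higher and 0.275% lower. The log2 fold change was above 0 for 10 genes and below 0 for 10, with a median of 0.02 against -0.02 over all genes and a range from -0.98 to 1.78. That median was 1.03 without control 2 and -0.24 in the model with the library set. For a single gene, an exact permutation test of 3 libraries against 3 cannot give a two-sided p under 0.10. When the library set entered the edgeR model beside the treatment, 2 chemokine genes were called, Ccl6 higher and Ccl7 lower after RA, where 1.54% of all genes were, 0.744% higher and 0.795% lower. The set was read from these same expression values, so the p-values of this model, here and below, are descriptions and not tests. Since nothing says that the libraries came from separate mice, all p-values measure the spread between these libraries, which may be technical.

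The ligands Ccl3, Ccl4, Ccl5, Ccl6 and Ccl9, whose genes lie in one cluster on chromosome 11 and which draw monocytes, macrophages and T cells, included 3 of the 5 genes with an unadjusted p under 0.05, all higher after RA. Ccl6 (ENSMUSG00000018927, chromosome 11 of GRCm38 from 83587882 to 83593087) encodes a CCR1 ligand of mouse myeloid cells. Its level was 56.7, 22.0 and 67.4 CPM in controls 1 to 3 and 150.0, 145 and 206 CPM in RA 1 to 3. All 3 RA libraries lay above all 3 controls, and the lowest library was control 2, the only control of set 1. The mean went from 48.7 ± 23.8 CPM in controls to 167 ± 33.5 CPM after RA (SD, n = 3 each), which is 3.43 times as high. In edgeR the log2 fold change was 1.78 (standard error 0.41), and the adjusted p of 0.415 missed the threshold. DESeq2 gave Ccl6 an adjusted p of 0.00287, and the edgeR model with the library set gave 2.22 on the log2 scale (standard error 0.22) with an adjusted p of 0.00524. Within the sets the ratio of RA to control was 6.73 in set 1 and 3.31 in set 2. Leaving out each library in turn from the fit with the set kept the adjusted p of Ccl6 under 0.05 in 5 of 6 fits, the exception being the fit without control 1 (0.0711, edgeR).

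Ccl9 (chromosome 11 from 83572919 to 83578636), which encodes another CCR1 ligand and lies next to Ccl6 on the same strand, had 159, 247 and 151 CPM in controls 1 to 3 and 376, 349 and 231 CPM in RA 1 to 3. Both RA libraries of set 1 stood above every control, while RA 3 lay below control 2. In edgeR its log2 fold change of 0.78 (standard error 0.26) had an adjusted p of 0.795. With the set in the fit it was 0.57 (standard error 0.07) with an edgeR adjusted p of 0.0150, just short of the fold threshold of 0.58 on this scale. That adjusted p stayed under 0.05 in 2 of the 6 fits that also left out 1 library, with edgeR values from 0.00029 to 0.21. The ratio of RA to control for Ccl9 was 1.47 in set 1 and 1.49 in set 2. By set, Ccl9 was higher in set 1 than in set 2, 1.80 times by the means.

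Ccl3 and Ccl4 encode the macrophage inflammatory proteins, which draw monocytes and T cells. Ccl3 stood at 88.7, 91.4 and 73.2 CPM in controls 1 to 3 and at 114, 130.5 and 92.5 CPM in RA 1 to 3. The RA libraries all lay above the controls, RA 3 by little over control 2, and the log2 fold change of 0.41 (standard error 0.16) had an edgeR adjusted p of 0.795. Ccl4 had 56.8, 76.3 and 42.8 CPM in controls and 62.0, 64.1 and 49.3 CPM after RA, so that the RA libraries lay within the range of the controls. The log2 fold change of Ccl4 was -0.01 (standard error 0.23). Ccl3 and Ccl4 lie side by side and are induced together in many myeloid cells.

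Ccl5 encodes a T cell and monocyte attractant that T cells and virus-exposed cells make. It had 1.47, 23.9 and 2.89 CPM in controls 1 to 3 and 10.8, 6.34 and 2.18 CPM in RA 1 to 3. The highest value belonged to control 2 and the lowest to control 1, so the treatment groups overlapped entirely while every set 1 library lay above every set 2 library. Its edgeR log2 fold change was -0.56 (adjusted p = 0.899, standard error 1.05), and 1.58 without control 2. Within the sets the log2 difference for Ccl5 was -1.52 in set 1 and 0.07 in set 2. The summed level of the 5 genes of the Ccl3 cluster was 362, 461 and 337 CPM in controls and 713, 696 and 581 CPM after RA, with no overlap. Ccl9 and Ccl6 made up most of this sum, while Ccl4 and Ccl5 had log2 fold changes of -0.01 and -0.56.

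The CCR2 ligands, which draw inflammatory monocytes, were lower after RA within both sets for Ccl2 and Ccl7 but parted the sets more widely. Ccl2 (ENSMUSG00000035385, chromosome 11 from 82035571 to 82037453) encodes monocyte chemoattractant protein 1. Its level was 12.5, 157 and 12.1 CPM in controls 1 to 3 and 93.5, 51.1 and 7.23 CPM in RA 1 to 3. In each set the control libraries were the higher ones: control 2 stood above RA 1 and RA 2, and controls 1 and 3 stood above RA 3. Between the sets the gap was larger, since the lowest set 1 library had 51.1 CPM and the highest set 2 library 12.5. Pooled over the sets the control mean was 60.6 ± 83.6 CPM and the RA mean 50.6 ± 43.1 CPM (SD, n = 3 each). The edgeR log2 fold change of -0.26 had a standard error of 1.21 and an adjusted p of 0.961, and it was 2.06 without control 2. The difference of mean log2 CPM was 0.18, of the other sign. In the model with the set it was -0.98 for Ccl2 (standard error 0.23), with an edgeR adjusted p of 0.105, and the call was made in 2 of the 6 fits that also left out 1 library. The summed mesenchymal markers, mostly Col1a1 and Col1a2, had the same order within the sets. The sum was 3678 CPM in control 2 against 2677 and 1718 in RA 1 and RA 2, and 1888 and 1990 in controls 1 and 3 against 1271 in RA 3. The ratio of RA to control in sets 1 and 2 was 0.51 and 0.55 for Col1a1 and 0.53 and 0.57 for Col1a2. It was 0.46 and 0.59 for Ccl2 and 0.47 and 0.29 for Ccl7. Not all markers of the list shared this fall, with 0.86 and 0.97 for Eng and 0.96 and 0.83 for Cd44. DESeq2 called 1 mesenchymal marker higher (Lepr) and 1 lower (Ly6a), where it called 0.983% of all genes. The median log2 fold change of the 11 tested markers was -0.05. The part of these markers in the Ccl2 and Ccl7 values was not tested.

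Ccl7 (ENSMUSG00000035373, chromosome 11 from 82045712 to 82047525), the neighbour of Ccl2 and another CCR2 ligand, followed the same order of libraries in set 1. It had 12.7, 136 and 12.9 CPM in controls 1 to 3 and 74.2, 54.0 and 3.68 CPM in RA 1 to 3. RA 3 held only 54 counts of Ccl7, against 181 and 187 in the controls of its set. The control level was 2.12 times that of RA in set 1 and 3.47 times in set 2. In the model with the set Ccl7 fell by 1.33 on the log2 scale (edgeR adjusted p = 0.0181, standard error 0.19). That call held in 2 of the 6 fits that also left out 1 library (without RA 1 or RA 2), with log2 fold changes from -1.78 to -1.09 and adjusted p from 0.00197 to 0.120 in edgeR. Without the set in the fit the log2 fold change was -0.30 (edgeR adjusted p = 0.957, standard error 1.22), and it was 1.80 without control 2.

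Ccl12, which encodes a further mouse CCR2 ligand of the same gene cluster, was lower by far, with counts from 15 to 96. It had 1.40, 4.10 and 1.03 CPM in controls and 5.34, 5.52 and 1.09 CPM after RA. All set 1 libraries lay above all set 2 libraries, but in set 1 the control was the lowest of the 3, unlike Ccl2 and Ccl7. Its log2 fold change was 0.86 (edgeR adjusted p = 0.803, standard error 0.73), and 1.73 without control 2. Ccl8, the remaining CCR2 ligand, held 6 to 22 counts per library and was not tested. The summed CCR2 ligands took 298 CPM in control 2, 173 in RA 1 and 111 in RA 2, but 27.1 in control 1, 27.5 in control 3 and 12.4 in RA 3.

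**Figure D2:**
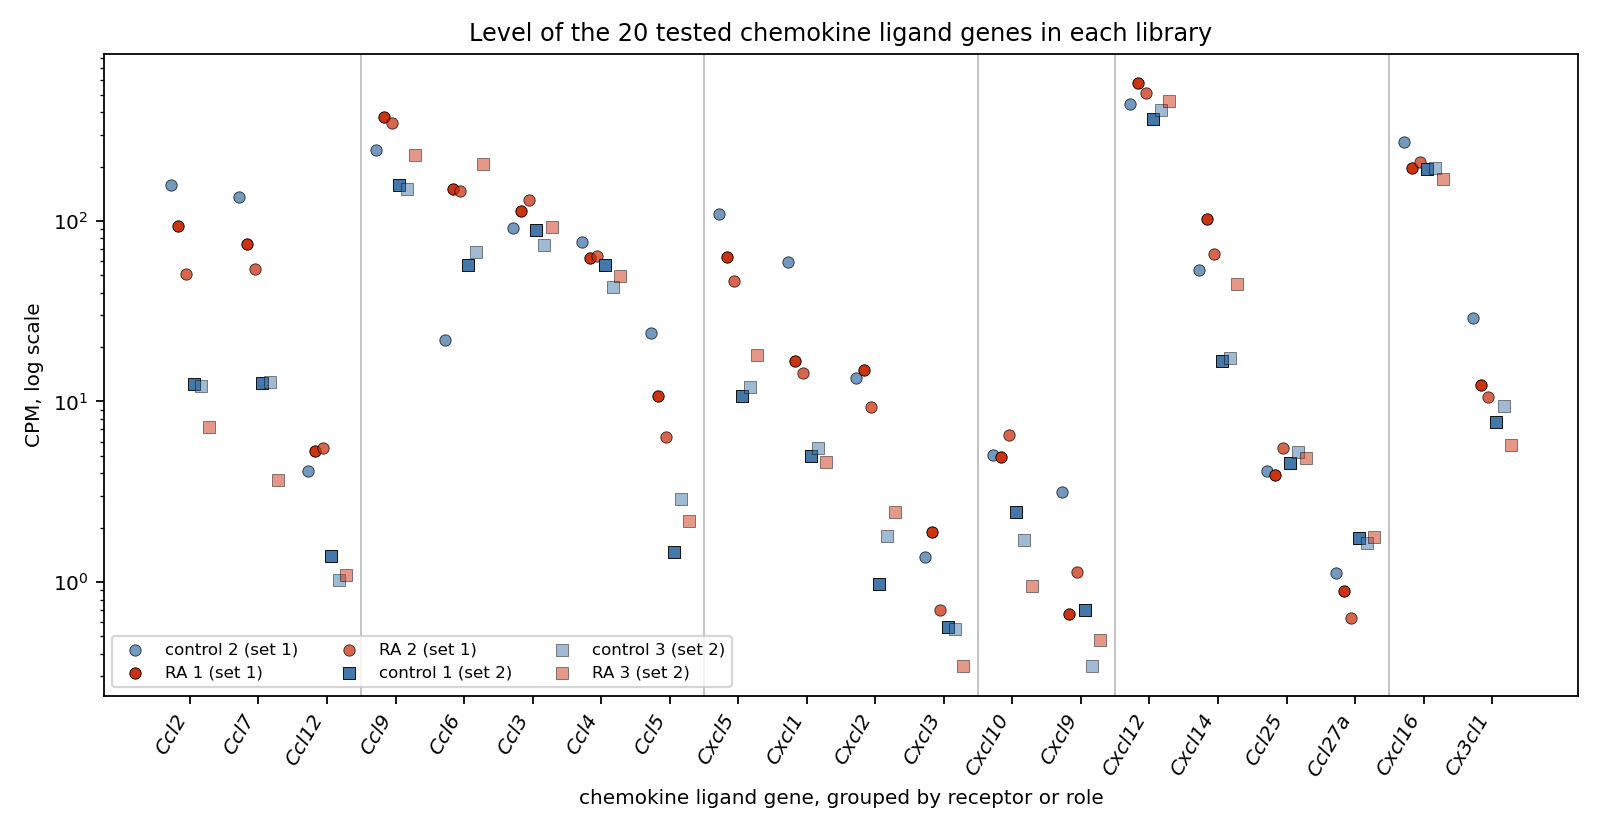
Level (CPM, log scale, y axis) of the 20 tested chemokine ligand genes (x axis, divided by grey lines into CCR2 ligands, the Ccl3 cluster, CXCR2, CXCR3, homeostatic and membrane-anchored ligands) in each library; blue is control, red is RA, circles are set 1 and squares set 2. For Ccl2, Ccl7, Cxcl5 and Cxcl1 the circles stand above the squares with control 2 on top, while for Ccl6 the red symbols stand above the blue ones.

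The CXCR2 ligands, which draw neutrophils, parted the library sets as well. Cxcl5 (chromosome 5 from 90759360 to 90761624) had 10.7, 109.6 and 12.0 CPM in controls 1 to 3 and 63.3, 46.4 and 18.1 CPM in RA 1 to 3. Control 2 was again the highest library, and RA 3 lay above the controls of its own set, so the difference between RA and control was -1.02 on the log2 scale in set 1 and 0.67 in set 2. Over all libraries the log2 fold change of Cxcl5 was -0.05 (edgeR adjusted p = 0.991, standard error 0.95), and it turned to 1.92 without control 2 and to 0.60 with the replicate number as a block.

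Cxcl1, whose promoter is printed above, had 4.97, 59.5 and 5.50 CPM in controls 1 to 3 and 16.7, 14.3 and 4.64 CPM in RA 1 to 3. Control 2 alone stood far above the rest, at 3.84 times the mean of RA 1 and RA 2, whereas in set 2 the control mean was 1.13 times RA 3. In edgeR the log2 fold change of Cxcl1 was -0.98 (adjusted p = 0.827, standard error 1.02), and 1.20 without control 2. Cxcl2 had 0.981, 13.5 and 1.79 CPM in controls and 14.9, 9.32 and 2.46 CPM after RA. Here the highest library was RA 1, not control 2. The log2 fold change of Cxcl2 was 0.70 (edgeR adjusted p = 0.865, standard error 1.03), and it was 0.13 without RA 1 and 2.69 without control 2.

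Cxcl3, the third gene with that run, held 5 to 34 counts per library, with the lowest in RA 3 and the highest in RA 1. All 4 CXCR2 ligands were higher in every set 1 library than in every set 2 library, by 1.18 for Cxcl3, 2.24 for Cxcl1, 2.36 for Cxcl5 and 2.82 for Cxcl2 as differences of mean log2 CPM. The summed level of the CXCR2 ligands was 184 CPM in control 2, 96.7 in RA 1 and 70.7 in RA 2, against 17.2 in control 1, 19.8 in control 3 and 25.6 in RA 3.

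The CXCR3 ligands are induced by interferons and draw activated T cells and NK cells. Cxcl10 had 2.45, 5.05 and 1.72 CPM in controls 1 to 3 and 4.95, 6.53 and 0.955 CPM in RA 1 to 3. The set 1 libraries all lay above the set 2 libraries, and the treatment groups overlapped, with a log2 fold change of 0.42 (edgeR adjusted p = 0.883, standard error 0.70) that was -0.28 in the model with the set. Cxcl9 had 0.700, 3.14 and 0.344 CPM in controls and 0.667, 1.14 and 0.478 CPM after RA, with control 2 above the other 5 libraries and its set not apart from the other. Cxcl11 held 1 count in all 6 libraries together. Other interferon-stimulated genes ordered the libraries the other way: of 15 tested, 14 were lower in every set 1 library than in every set 2 library, where 24.4% of all genes were, and 0 higher.

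Among the homeostatic ligands, Cxcl12 (ENSMUSG00000061353, chromosome 6 from 117168535 to 117181367), the marrow niche factor that acts on CXCR4, took 31.6% of all chemokine ligand counts. It stood at 368, 443 and 413 CPM in controls 1 to 3 and at 578, 513 and 462 CPM in RA 1 to 3. All RA libraries lay above all controls, RA 3 by little over control 2, and the mean went from 408 ± 37.8 to 518 ± 58.2 CPM (SD, n = 3 each). The edgeR log2 fold change of 0.34 (standard error 0.14) had an adjusted p of 0.795, and the ratio of RA to control was 1.23 in set 1 and 1.18 in set 2. Cxcl14 (chromosome 13 from 56288643 to 56296551), which encodes a chemokine of epithelia and fibroblasts, had 16.7, 53.2 and 17.3 CPM in controls and 102, 65.4 and 44.8 CPM after RA. In each set every RA library lay above every control, while over both sets RA 3 lay below control 2. The log2 fold change of Cxcl14 was 1.28 (edgeR adjusted p = 0.795, standard error 0.53) and 1.01 in the model with the set (edgeR adjusted p = 0.0739, standard error 0.21). Without control 2 and without the set in the model, the log2 fold change of Cxcl14 was 2.07.

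Ccl25, a CCR9 ligand best known from thymus and gut, lay between 3.89 and 5.52 CPM in all 6 libraries, with a log2 fold change of 0.04 (edgeR adjusted p = 0.969, standard error 0.22). Ccl27a, a CCR10 ligand of skin, was the only tested chemokine gene whose set 1 libraries all lay below the set 2 libraries, at 1.12, 0.889 and 0.634 CPM against 1.75, 1.65 and 1.77. Only 10 to 26 counts per library stand behind it, and near-identical copies of Ccl27a exist in the mouse genome, so that its reads may be split.

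Cxcl16 and Cx3cl1 encode the membrane-anchored ligands, which hold cells as well as draw them. Cxcl16, the ligand of CXCR6, had 194, 272 and 197 CPM in controls 1 to 3 and 197, 213 and 171 CPM in RA 1 to 3, with a log2 fold change of -0.19 (edgeR adjusted p = 0.807, standard error 0.17). Its groups overlapped by treatment and by set, and 18.3% of its exon bases are shared with Zmynd15 on the opposite strand. Cx3cl1, the ligand of CX3CR1, had 7.70, 29.0 and 9.49 CPM in controls and 12.3, 10.5 and 5.73 CPM after RA. In both sets each control stood above each RA library, by a factor of 2.54 in the means of set 1 and 1.5 in those of set 2. The log2 fold change of Cx3cl1 was -0.69 (edgeR adjusted p = 0.803, standard error 0.56) and -1.01 in the model with the set (edgeR adjusted p = 0.0578, standard error 0.20). Without control 2 and without the set in the model it turned to 0.17.

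The 12 genes below the filter held few reads, and a count of 3 corresponds to between 0.162 and 0.204 CPM before TMM scaling. Ccl20, the ligand of CCR6, had 0, 9 and 3 counts in controls 1 to 3 and 5, 12 and 0 in RA 1 to 3. Ccl17, a CCR4 ligand, had 0, 5 and 1 against 9, 3 and 1. Cxcl15, a lung chemokine, had 1, 0 and 1 against 6, 5 and 3, counts too low to test at this depth. Ccl28 and Cxcl13 held at most 6 and 5 counts in any library, and Ccl11, Ccl19 and Ccl24 at most 3, 2 and 1. Ccl1, Ccl21a and Cxcl11 had 1 count each over all libraries. Ccl22, Ccl21b, Ccl21c, Ccl26, Ccl27b, Cxcl17 and Xcl1 were not analysed here.

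Read across the family, the library sets left more chemokine genes without overlap than the treatment did, as they did over all genes. The sets were read from these expression values, so this order follows from how they were chosen. All 3 RA libraries lay above all 3 controls for 3 of the 20 tested genes (Ccl3, Ccl6 and Cxcl12) and below them for 0, where 5.71% of all genes lay above, 6.87% below and 12.6% on either side. For the sets, 13 of 20 were higher in every set 1 library (23.4% of all genes) and 1 lower (24.4% of all genes), so that 14 did not overlap (47.7% of all genes). The sets overlapped for Ccl3, Ccl6, Ccl25, Cxcl9, Cxcl12 and Cxcl16. By size, 12 of 20 were at least 2-fold higher in set 1, where 5.64% of all genes were, and 6 were at least 4-fold higher, where 0.939% were. These 6 were Ccl2, Ccl5, Ccl7, Cxcl1, Cxcl2 and Cxcl5. The set difference of the tested chemokine genes had a median of 1.22 on the log2 scale, against -0.01 over all genes. Each set holds libraries of both treatments, and what parts the sets was not tested.

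**Figure D3:**
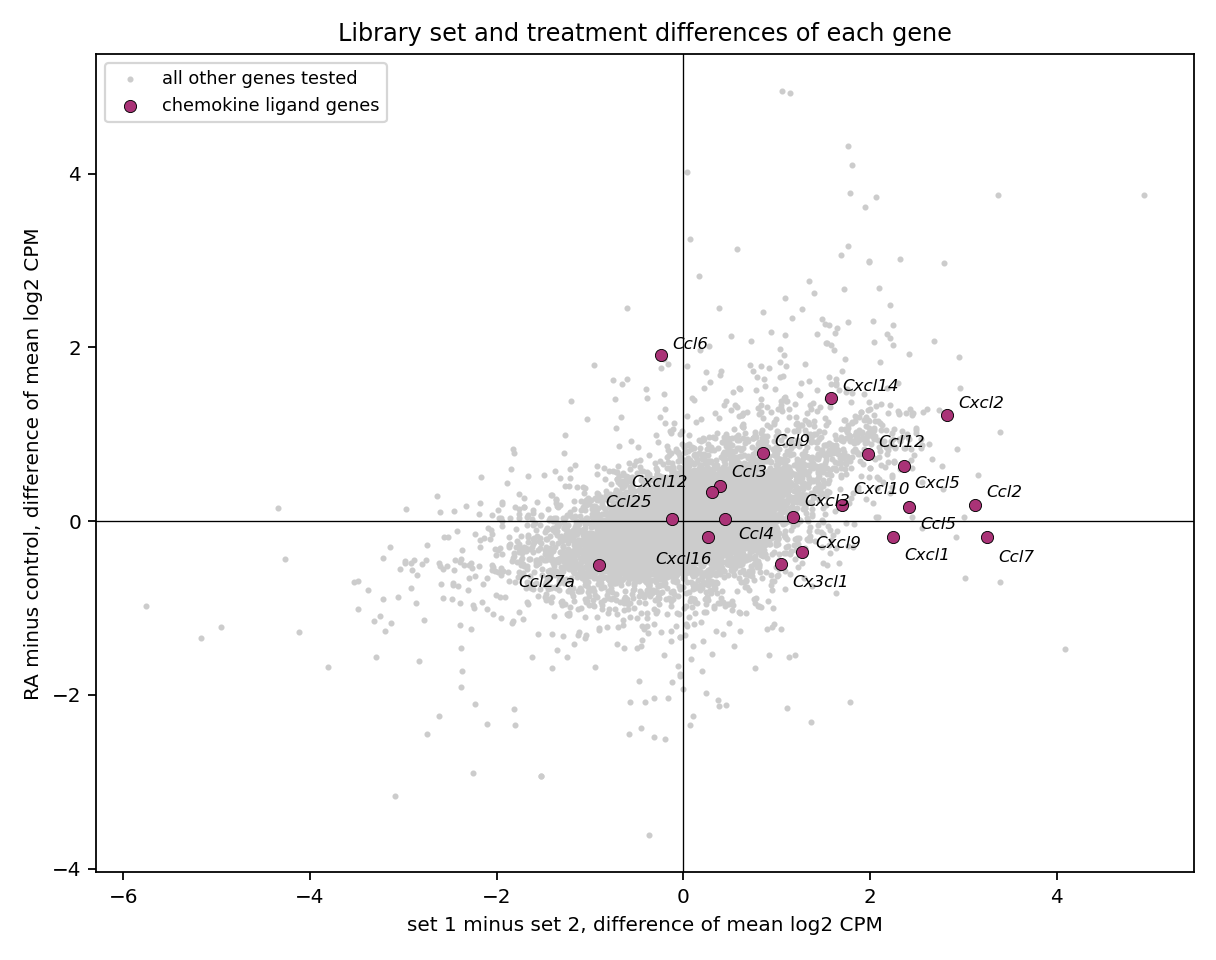
Difference of mean log2 CPM between set 1 and set 2 (x axis) and between RA and control (y axis) for the 20 tested chemokine ligand genes (purple, named) and all other tested genes (grey). Ccl2 and Ccl7 lie at the right near 0 on the y axis, and Ccl6 lies at the top near 0 on the x axis.

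By position, the 14 genes without overlap between the sets lay both inside and outside gene clusters. On chromosome 11 from 82035571 to 82305690, the 3 tested genes of the CCR2 ligand cluster (Ccl2, Ccl7 and Ccl12) were all higher in set 1, by 1.97 to 3.25 on the log2 scale. On chromosome 5 from 90759360 to 90905938, all 4 tested CXCR2 ligand genes were. On chromosome 11 from 83525778 to 83664683, the 5 tested genes ranged from -0.24 for Ccl6 to 2.42 for Ccl5, with 0.85 for Ccl9, the neighbour of Ccl6. In the CXCR3 ligand cluster on chromosome 5, 1 of the 2 tested genes (Cxcl10) was higher in every set 1 library. Cx3cl1 was the only tested gene of its locus on chromosome 8, and Cxcl14 on chromosome 13, also higher in every set 1 library, had no other chemokine gene near it.

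Other genes moved with the sets in the same libraries. All 10 cell division genes of a list with Mki67 and Top2a were higher in every set 1 library, where 23.4% of all genes were, with a summed level of 1015, 1199 and 574 CPM in RA 1, RA 2 and control 2 against 199 to 217 CPM in set 2. Il6, an inflammatory cytokine gene, was at 11.6 CPM in control 2, 2.39 in RA 1 and 2.73 in RA 2, against 0.700, 0.619 and 0.136 in control 1, control 3 and RA 3. Tnf was at 195, 118 and 120 CPM in control 2, RA 1 and RA 2 and between 81.7 and 98.1 in set 2. Il1b, an inducer of the same list, went the other way, at 1.38, 1.78 and 1.14 CPM in control 2, RA 1 and RA 2 and between 2.32 and 3.22 in set 2. Of the 12 tested genes of that list 3 were higher and 4 lower in every set 1 library (23.4% and 24.4% of all genes). Il6 and Cxcl1 had the same highest and lowest library. Their part in the chemokine levels was not tested.

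Control 2 was the highest of the 6 libraries for 9 of the 20 tested chemokine genes, where it was the highest for 21% of all genes. These were Ccl2, Ccl4, Ccl5, Ccl7, Cx3cl1, Cxcl1, Cxcl5, Cxcl9 and Cxcl16. RA 1 was the highest for 5 (11.7% of all genes), RA 2 for 4 (22.2%), RA 3 for 2 (15.9%), and controls 1 and 3 for 0 (18.4% and 10.7%). RA 3 was the lowest for 7 (18.8% of all genes), among them Ccl2, Ccl7 and Cxcl1. Controls 1 and 3 were the lowest for 5 each (15.7% and 10.1%), and RA 1, RA 2 and control 2 for 1 each (10.6%, 25.3% and 19.5%), which for control 2 was Ccl6.

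Within the sets, 8 genes were lower after RA in both (Ccl2, Ccl4, Ccl7, Cx3cl1, Cxcl1, Cxcl3, Cxcl9 and Cxcl16), where 35% of all genes were, and 5 were higher in both (Ccl3, Ccl6, Ccl9, Cxcl12 and Cxcl14), where 30.9% were. With at least 1.5-fold in both sets, 2 were lower (Ccl2 and Ccl7, against 2.28% of all genes) and 2 higher (Ccl6 and Cxcl14, against 2.06%). Counting each set by itself, Ccl2 and Ccl7 included in both, 7 genes were at least 1.5-fold lower after RA in set 1, where 7.81% of all genes were, and 3 in set 2, where 4.67% were. In the other direction, Ccl6 and Cxcl14 were at least 1.5-fold higher in set 1. In set 2 Ccl6, Cxcl14, Cxcl2 and Cxcl5 were. The share of all genes was not computed for that direction. Each set holds only 1 library of one treatment, so no spread can be given for it.

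**Figure D4:**
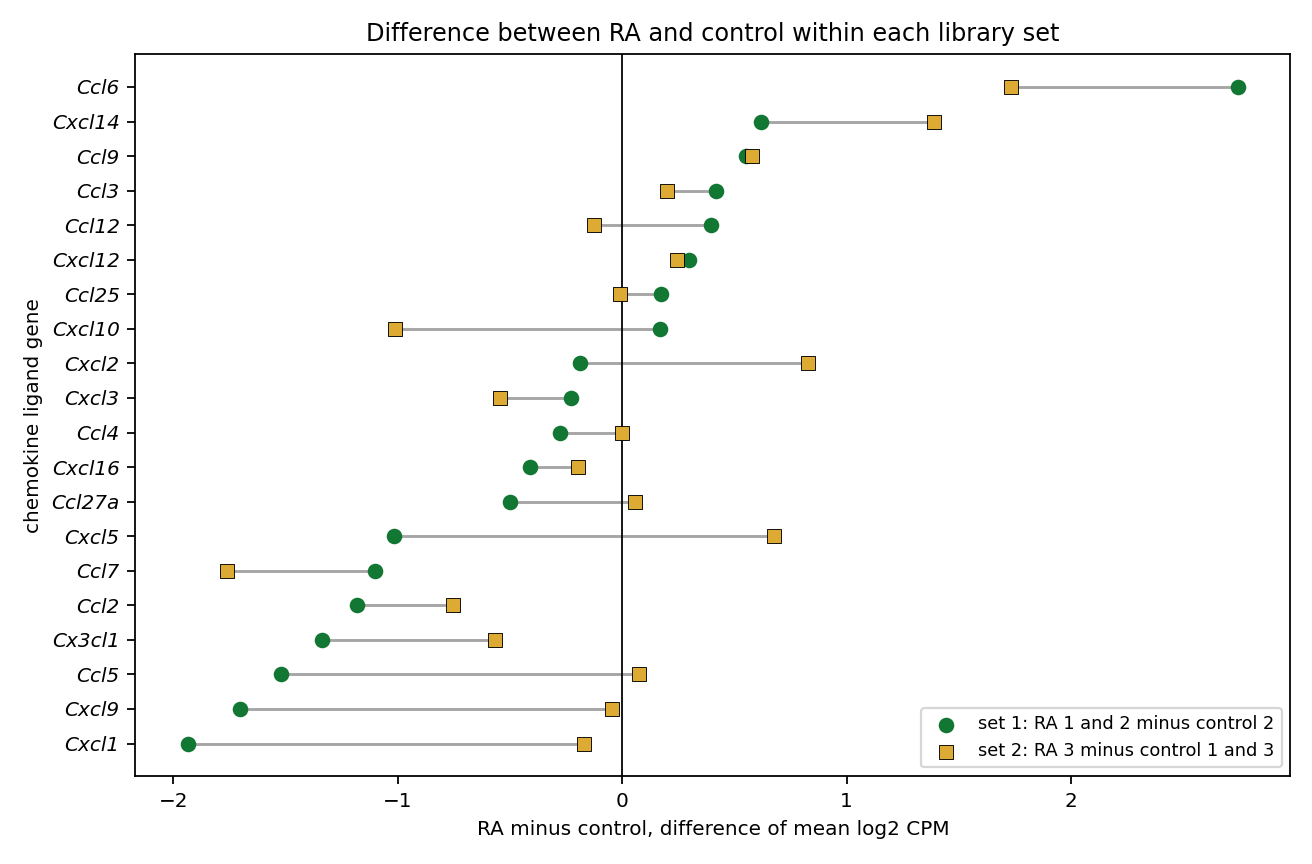
Difference of mean log2 CPM between RA and control (x axis) within set 1 (green circles, RA 1 and 2 minus control 2) and within set 2 (yellow squares, RA 3 minus control 1 and 3) for each tested chemokine ligand gene (y axis). Ccl6, Cxcl14, Ccl9, Ccl3 and Cxcl12 lie right of 0 in both sets, and Ccl2, Ccl7 and Cx3cl1 lie left of it in both.

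The receptors of these ligands and their inducers were examined beside them. Of 22 chemokine receptor genes 10 were tested, and 0 passed in either direction with or without the set in the fit, with 2 at an unadjusted p under 0.05 in edgeR, where 5.25% of all genes were, and 0 called by DESeq2. Cxcr4, the receptor of CXCL12, had 2.92 CPM or less in set 1 and 17.6 CPM or more in set 2. Of 16 inducing cytokine and receptor genes 12 were tested and 0 passed, with 1 at an unadjusted p under 0.05 (5.25% of all genes). In the model with the set 1 of the 12 passed, where 1.54% of all genes did. This was Il6, which fell, with a log2 fold change of -2.19 (edgeR adjusted p = 0.00636). Il6 was at 0.136 CPM in RA 3, under the level of 3 counts, and highest in control 2, at 11.6 CPM. DESeq2 gave Il6 no p-value. Of 10 NF-κB subunit and inhibitor genes 0 passed in either fit, with 2 at an unadjusted p under 0.05 (5.25% of all genes), and their median log2 fold change was -0.24. Of the 15 interferon-stimulated genes 0 passed in either fit, with 0 at an unadjusted p under 0.05. Pf4 and Ppbp, the chemokine genes outside the name rule, did not pass, and both were higher in every set 1 library.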

How the data were processed

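The authors deposited raw counts of reads per gene for each of 6 libraries, without normalization. Bowtie2 2.2.3 and the build mm10 stand in the submitters' processing notes. The counting program, annotation and strand setting are not given in the sources used here, so reads of overlapping genes on opposite strands cannot be told apart. Counts were analysed in R 4.3.3 with edgeR 4.0.16: filterByExpr kept 13842 genes, scaling was by TMM, and RA was tested against control with the quasi-likelihood F test without covariates, with Benjamini-Hochberg adjustment over all genes tested. Calls needed an adjusted p under 0.05 and at least a 1.5-fold change. A standard error is the size of the log2 fold change over the square root of F. A prior count of 2 was added for log2 CPM. Levels per kilobase used the union of exons of GENCODE release M21 (GRCm38), in which 25706 of 25722 gene identifiers were found. Promoters are from RefSeq (GRCm38.p6). DESeq2 1.42.0, other scalings and filters, a likelihood ratio test, the replicate block, the library set as a covariate and leaving out each library were alternatives. The median over all genes was -0.02 on the log2 scale with TMM and 0.03 with library size alone. The fit was also run on simulated counts, which held no difference between library sets. That run cannot show how the fits behave with the split seen here.

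Every gene of the rule is accounted for. Those with a mean of at least 1 CPM are given per library, the others by their counts, and other genes come from lists of chemokine receptors, inducers, NF-κB genes, interferon-stimulated genes, cell division genes and cell type markers. One gene of these other lists is not reported here. Members, lists and library sets were chosen with earlier results of these data known. Between replicates the chi-square divided by its degrees of freedom was at least 4.88, so no library was counted as a copy of another.

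Of the marker lists, 0 macrophage markers of 14 tested, 0 mesenchymal markers of 11, 0 neutrophil markers of 3, 0 lymphocyte markers of 1, 0 endothelial markers of 3, 0 dendritic cell markers of 2, 0 platelet and mast cell markers of 2 and 0 cell division genes of 10 passed the edgeR test without covariates, with 0, 4, 0, 0, 0, 0, 0 and 1, in that order, at an unadjusted p under 0.05, where 0.0433% of all genes were called and 5.25% had such a p. DESeq2 and the model with the library set each called 1 mesenchymal marker higher (Lepr) and 1 lower (Ly6a), and 0 in the other marker lists. Over all genes these fits called 0.983% and 1.54%. The summed lymphocyte markers lay between 0.389 and 3.27 CPM and the neutrophil markers between 21.8 and 36.1 CPM.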

Additional observations from a re-analysis of the deposited data

How the results depend on the processing

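Of 265 log2 fold changes of the 19 chemokine genes under other settings, 241 kept their sign and 24 reversed, 9 of them without control 2. Ccl4, near 0, turned to 0.0025 with DESeq2, 0.035 with library size alone, 0.0024 with DESeq2 size factors, 0.0010 with at least 10 counts in every library and 0.024 with the replicate number as a block. The replicate block also turned Ccl2 to 0.040, Cxcl5 to 0.60 and Ccl5 to 0.013, and the library set as a covariate turned Cxcl10 to -0.28. Without 1 library at a time, the log2 fold change ran from -1.03 to 2.06 for Ccl2, -0.88 to 1.80 for Ccl7, -0.52 to 1.92 for Cxcl5, -1.45 to 1.20 for Cxcl1, -1.13 to 1.58 for Ccl5, -1.01 to 0.17 for Cx3cl1, -1.34 to 0.56 for Cxcl9, -0.19 to 0.24 for Ccl4, -0.056 to 1.01 for Cxcl10 and -0.082 to 0.19 for Ccl25. With no change of sign it ran from 0.13 to 2.69 for Cxcl2, 0.52 to 1.73 for Ccl12, 0.94 to 2.07 for Cxcl14 and 1.44 to 2.09 for Ccl6, the highest of the first 3 without control 2. The causes of these reversals were not tested.

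Chemokine genes called numbered 1 with DESeq2 and 1 with the likelihood ratio test, each higher, and 2 with the set as a covariate, 1 higher and 1 lower. With each library left out they numbered 0, and 0 to 7 when the set was also a covariate, up to 3 higher and up to 4 lower, a choice made after seeing the data. With 1 library left out, their median log2 fold change ran from -0.11 to 1.03 without the set in the model, the highest without control 2, and from -0.27 to -0.0035 with it. Over all genes, 6 calls (5 higher and 1 lower) became 136 with DESeq2 (98 and 38), 134 with the likelihood ratio test (93 and 41), 213 with the set (103 and 110), 20 without the filter (17 and 3), 6 with library size alone (6 and 0) and 4 under the replicate block (4 and 0). They ran from 0 to 6 with 1 library left out, and up to 420 with the set as well (up to 197 higher and 223 lower). The numbers do not pair the samples (correlations of deviations -0.51, 0.34 and 0.57), and under the block 0 chemokine genes were called. Genes without overlap numbered 2 to 4 by treatment and 14 to 17 by set under other scalings and filters. DESeq2 gave Cxcl1 no adjusted p. Genes under about 3 counts were beyond the depth of these libraries.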
